A study of Mus musculus with 5 samples.

Results

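Myelin transcripts were examined in RNA from vessel fragments isolated out of the brains of 3 WT and 2 Ins2-AKITA mice, using 9 genes of the myelin sheath: Mbp, Mobp, Mal, Cldn11, Cnp, Ermn, Mag, Mog and Ugt8a. The members were chosen by gene symbol, and 9 of the 37982 Ensembl identifiers in the files carried these symbols in the NCBIM37 annotation, 1 for each gene. All mice were males on a C57BL6 background between 26 and 38 weeks of age. The Ins2-AKITA mice were heterozygous for a mutation of the insulin gene Ins2 that kills pancreatic beta cells and raises blood glucose, and the WT mice were their littermates. The mutation acts in beta cells, and the labels name no transgene, Cre or treatment in either group. Vessels had been pulled from collagenase-treated brain with magnetic beads against the endothelial protein PECAM1, so the samples hold endothelial cells together with whatever stays attached to the vessel or the beads. Each mouse gave 1 library, and the values are FPKM as deposited, that is, fragment numbers scaled by exon length and by library size.

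Myelin is the stack of membrane that oligodendrocytes wrap around axons. Its compact layers are held together by basic proteins, its inner and outer faces carry adhesion glycoproteins, and its membrane is rich in galactolipids made by the oligodendrocyte. Oligodendrocytes are not part of the vessel wall, but white matter capillaries run between myelinated fibers. The mRNAs of Mbp and Mobp are known to travel into the oligodendrocyte processes, where the proteins are made beside the growing sheath. In bulk RNA of this kind, fewer oligodendrocyte fragments and less RNA per fragment cannot be told apart.

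The sequences upstream of the transcription start are shown for 5 genes: Mobp, a basic protein gene near the top of the range, Cnp and Mal, the members whose genotypes did not overlap, and Mag and Mog, the pair that shared a low value in Ins2-AKITA replicate 2. Each is the 250 bases before the start in RefSeq, on build GRCm38.p6, which is not the build of the expression values. The windows are chr9:120149492-120149741 on the plus strand for Mobp, chr11:100574689-100574938 on the plus strand for Cnp, chr7:30914923-30915172 on the minus strand for Mag (the most upstream of 3 listed starts), chr17:37023399-37023648 on the minus strand for Mog and chr2:127656696-127656945 on the minus strand for Mal. Capitals mark ACAAAG, a core bound by SOX proteins such as the oligodendrocyte factor SOX10, and CTGGNAC, each on either strand. CTGGNAC, with any base at N, covers a core of the sites of the myelin regulatory factor MYRF. Not every match need fit that core.
Mobp: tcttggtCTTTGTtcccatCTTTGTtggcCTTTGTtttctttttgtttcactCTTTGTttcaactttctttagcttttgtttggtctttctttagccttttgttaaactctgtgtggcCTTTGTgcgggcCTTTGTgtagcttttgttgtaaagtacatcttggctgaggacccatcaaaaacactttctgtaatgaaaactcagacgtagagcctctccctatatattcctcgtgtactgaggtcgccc
Cnp: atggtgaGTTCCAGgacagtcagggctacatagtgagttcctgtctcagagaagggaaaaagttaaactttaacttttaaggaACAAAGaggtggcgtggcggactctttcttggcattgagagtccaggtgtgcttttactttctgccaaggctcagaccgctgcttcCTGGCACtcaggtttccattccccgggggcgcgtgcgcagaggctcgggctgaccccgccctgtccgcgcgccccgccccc
Mag: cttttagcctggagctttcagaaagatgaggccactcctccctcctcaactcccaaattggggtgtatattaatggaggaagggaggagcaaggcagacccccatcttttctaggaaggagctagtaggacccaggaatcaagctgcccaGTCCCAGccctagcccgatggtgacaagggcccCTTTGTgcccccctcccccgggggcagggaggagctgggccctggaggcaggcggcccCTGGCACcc
Mog: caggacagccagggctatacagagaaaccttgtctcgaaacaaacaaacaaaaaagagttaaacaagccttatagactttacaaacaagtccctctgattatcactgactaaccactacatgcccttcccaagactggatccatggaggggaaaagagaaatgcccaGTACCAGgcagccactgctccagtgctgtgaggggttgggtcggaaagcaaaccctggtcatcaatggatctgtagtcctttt
Mal: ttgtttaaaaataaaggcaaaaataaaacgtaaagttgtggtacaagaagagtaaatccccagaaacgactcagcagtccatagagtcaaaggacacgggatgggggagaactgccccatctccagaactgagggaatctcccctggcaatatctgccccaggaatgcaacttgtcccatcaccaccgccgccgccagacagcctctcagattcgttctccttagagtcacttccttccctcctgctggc
Mobp held 6 copies of ACAAAG and 0 of CTGGNAC. Cnp and Mag each held 1 copy of ACAAAG and 2 of CTGGNAC, Mog held 1 copy of CTGGNAC, and Mal held neither. No copies overlapped. Of all 32851 RefSeq windows of this length, 16.5% held ACAAAG and 16.1% held CTGGNAC, so a match is a description of the letters only. Of the members with a sequence that is not printed, Cldn11, Ermn and Ugt8a held neither motif.

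The basic proteins of compact myelin gave the highest values. Mbp (ENSMUSG00000041607, chromosome 18, 16 annotated transcripts), which glues the cytoplasmic faces of the membrane together, had an FPKM of 981, 1129 and 1471 in WT replicates 1, 2 and 3 and of 1171 and 1331 in Ins2-AKITA replicates 1 and 2. Both Ins2-AKITA values lay inside the WT range. Mobp (ENSMUSG00000032517, chr9:120058860-120090602 of NCBIM37, plus strand), a further basic protein of the compact layers, had 783, 655 and 878 FPKM in the WT group, against 655 and 728 in the Ins2-AKITA group. These overlapped as well, and Mobp varied least of the members, by 1.34-fold between the highest and the lowest mouse. Among the 13931 protein-coding genes tested, Mbp ranked between 13 and 20 from the top in the 5 mice and Mobp between 26 and 37. Together they made up 90.9% to 92.9% of the summed FPKM of the 9 genes in each mouse.

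For scale, a list of 12 endothelial markers was set beside them, and FPKM was used because it divides by gene length. The highest endothelial marker in each mouse was 127, 174 and 86.4 FPKM in the WT group, against 109 and 79.99 in the Ins2-AKITA group. Mbp was 6.47 to 17.0 times that value and Mobp 3.76 to 10.2 times, so that 0 of the 12 endothelial genes exceeded either of them in any mouse. Ugt8a stood at the other end, below all 12 endothelial genes in every mouse. The mean FPKM over the 5 mice differed 170-fold between Mbp and Ugt8a.

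**Figure D1:**
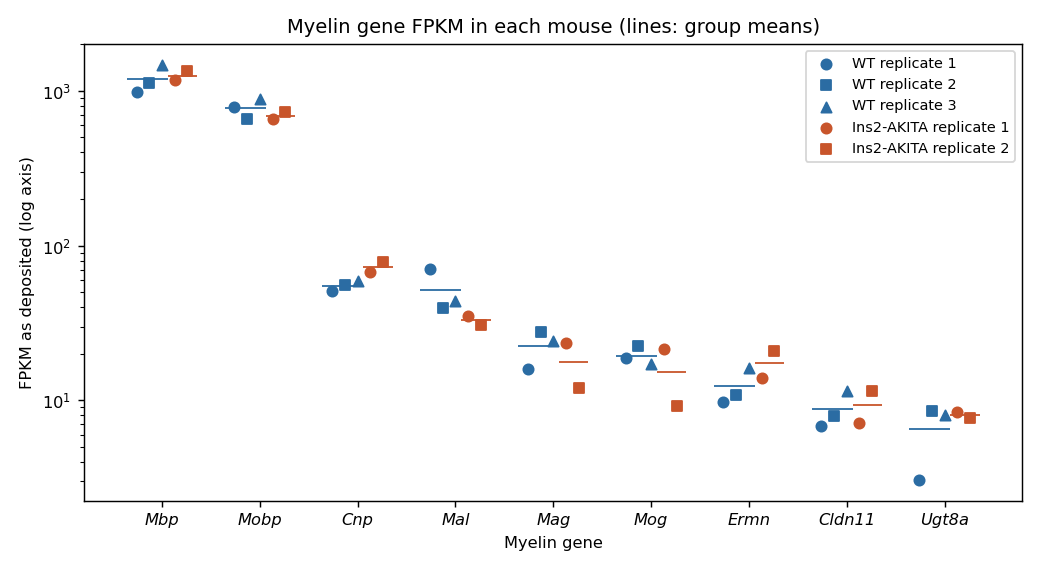
FPKM as deposited of the 9 myelin genes (log axis) in each of the 5 mice, with blue for WT, orange for Ins2-AKITA, a marker shape for the replicate number and horizontal lines for the group means (3 WT, 2 Ins2-AKITA). Mbp and Mobp sit above all other members in every mouse, and the orange points leave the range of the blue ones for Cnp and Mal.

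The other membrane proteins of the compact sheath were far lower. Mal (ENSMUSG00000027375, chr2:127458962-127482431, minus strand), a proteolipid of membrane rafts that sorts proteins to the myelin membrane, had 71.1, 39.5 and 43.9 FPKM in the WT group, against 35.1 and 30.8 in the Ins2-AKITA group. Both Ins2-AKITA mice were below all WT mice, and WT replicate 1 stood above the other 4. Cldn11 (ENSMUSG00000037625, chr3:31048868-31063246, plus strand), the claudin that seals the layers of myelin, had 6.88, 7.95 and 11.5 FPKM in the WT group, against 7.12 and 11.5 in the Ins2-AKITA group. Its groups overlapped.

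The cytoplasmic proteins had intermediate values. Cnp (ENSMUSG00000006782, chr11:100436218-100453043, plus strand), a phosphodiesterase that keeps cytoplasm-filled channels of the sheath open, had 50.5, 55.5 and 58.6 FPKM in the WT group, against 67.8 and 78.3 in the Ins2-AKITA group. Both Ins2-AKITA mice were above all WT mice, and Cnp had the tightest WT values, within 1.16-fold. Ermn (ENSMUSG00000026830, chr2:57897524-57905275, minus strand), an actin-binding protein of mature oligodendrocytes, had 9.80, 10.9 and 16.3 FPKM in the WT group, against 14.0 and 21.0 in the Ins2-AKITA group. Ins2-AKITA replicate 2 was the highest mouse, and Ins2-AKITA replicate 1 lay below WT replicate 3. Exons of Cnp share 154 bases with Dnajc7 and exons of Ermn share 237 bases with Galnt5, in each case on the opposite strand, which is 4.23% and 6.52% of their exon length. The other 7 genes share no exon bases with another annotated gene.

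The glycoproteins at the faces of the sheath differed most within the Ins2-AKITA mice. Mag (ENSMUSG00000036634, chr7:31684202-31699851, minus strand), which holds the innermost layer to the axon, had 16.0, 27.8 and 24.1 FPKM in the WT group, against 23.4 and 12.02 in the Ins2-AKITA group. Mog (ENSMUSG00000076439, chr17:37147691-37160343, minus strand), an immunoglobulin-domain protein on the outermost surface, had 18.7, 22.5 and 17.1 FPKM in the WT group, against 21.5 and 9.21 in the Ins2-AKITA group. For both genes Ins2-AKITA replicate 2 was the lowest of the 5 mice while Ins2-AKITA replicate 1 was among the WT values. Ugt8a (ENSMUSG00000032854, chr3:125568277-125641468, minus strand), the enzyme that makes galactosylceramide, the main glycolipid of myelin, had 3.06, 8.57 and 8.05 FPKM in the WT group, against 8.45 and 7.64 in the Ins2-AKITA group. Here WT replicate 1 alone stood apart, and the other 4 mice lay within 1 FPKM of each other.

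Few fragments stood behind several of the values. The libraries held an estimated 1131000 to 2860855 fragments, read from the FPKM steps of low genes that have a single annotated transcript. For Ugt8a, which has 1 transcript, the value of WT replicate 1 corresponds to about 12 fragments, with an exact 95% Poisson interval of 1.58 to 5.34 FPKM, and that of WT replicate 2 to 38.1 fragments, with an interval of 6.07 to 11.8 FPKM. For Cldn11 the estimates ran from 13 fragments in WT replicate 1 to 53.2 in WT replicate 3, and for Ermn from 39.1 in WT replicate 1 to 159 in WT replicate 3. Members with several transcripts have only a lower bound, set by the shortest transcript. For Mog it was 14.8 fragments in Ins2-AKITA replicate 2 and 30.4 in Ins2-AKITA replicate 1. For Cnp, whose shortest transcript has 322 bases, the bounds were 5.73, 7.27 and 15.9 fragments in WT and 7.44 and 9.58 in Ins2-AKITA replicates, and at these bounds the counting intervals of all 5 mice overlap, from 18.01 to 112 FPKM in WT replicate 1 to 36.9 to 146 FPKM in Ins2-AKITA replicate 2. For Mal, with 486 bases, the bounds ran from 10.3 fragments in Ins2-AKITA replicate 2 to 32.5 in WT replicate 3. How far the true numbers of Cnp and Mal lie above these bounds is not known. The annotated exons add up to 3639 bases for Cnp and 2778 for Mal, so the numbers can be far larger and the intervals far narrower. The overlap at the bounds therefore does not show that counting error covers the separation of Cnp. All intervals cover counting error only.

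The genotypes were compared in a limma fit on log2(FPKM + 1) across the 16286 genes with a mean FPKM of at least 1, a filter that all 9 myelin genes passed. None of the 9 myelin genes passed an adjusted p of 0.05 in limma, and 0 of 9 had an unadjusted p under 0.05. Of all genes tested, 0.0246% passed the adjusted threshold, all of them lower in Ins2-AKITA mice, and 4.46% had an unadjusted p under 0.05, 1.53% higher and 2.93% lower. The log2 fold change, Ins2-AKITA minus WT, was above 0 for 5 myelin genes and below 0 for 4, with a median of 0.07 beside -0.03 for all genes tested. With 3 mice against 2, the smallest p that the exact permutation test allows is 0.1.

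Cnp and Mal had the smallest p in this fit, in opposite directions. The mean FPKM of Cnp was 54.9 ± 4.10 (SD, n = 3) in the WT group, against 73.1 ± 7.42 (SD, n = 2) in the Ins2-AKITA group, 1.33-fold higher. On the log2 scale this was 0.41 with a standard error of 0.18 and a 95% interval from -0.03 to 0.84. The limma p was 0.063 unadjusted and 0.90 adjusted, and the two-sided exact permutation test gave 0.1. The mean FPKM of Mal was 51.5 ± 17.1 (SD, n = 3) in the WT group, against 32.9 ± 3.05 (SD, n = 2) in the Ins2-AKITA group, and the difference was close to the spread of the WT mice. On the log2 scale it was -0.58 with a standard error of 0.29 and a 95% interval from -1.28 to 0.11. The limma p was 0.086 unadjusted and 0.90 adjusted, and the two-sided exact permutation test gave 0.2. With values rescaled to TPM, which moved the median of all genes to 1.07, Mal turned to 1.00, that is, -0.07 relative to that median, and Cnp was at 0.90 relative to it. Because TPM applies 1 factor per mouse, genes shift relative to each other only through the 1 added before the log. The genotypes did not overlap for these 2 of the 9 genes, 1 higher and 1 lower, while 19.5% of all genes tested did not overlap, 9.24% higher and 10.3% lower. The share among the myelin genes, 22.2%, was near that background.

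The remaining 7 genes overlapped between the genotypes, and their intervals state how large a difference these mice allow. On the scale of FPKM + 1, the 95% interval of the fold change ran from 0.67 to 1.68 for Mbp and from 0.61 to 1.33 for Mobp. It was wider for Mog (0.40 to 1.38) and Mag (0.42 to 1.42), whose Ins2-AKITA mice differed by 2.34-fold and 1.94-fold. It was widest for Ugt8a, from 0.62 to 2.66, and ran from 0.60 to 1.84 for Cldn11 and from 0.83 to 2.34 for Ermn. The log2 fold changes of these 7 genes lay between -0.42 for Mog and 0.48 for Ermn, with adjusted p between 0.90 and 0.98 from limma. Differences within these intervals are not shown to be absent. Without Ins2-AKITA replicate 2 the values turned to 0.15 for Mog and 0.081 for Mag, to -0.24 for Cldn11 and to -0.0064 for Mbp. Without WT replicate 1 they turned to -0.045 for Mbp, -0.067 for Cldn11 and -0.042 for Ugt8a.

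**Figure D2:**
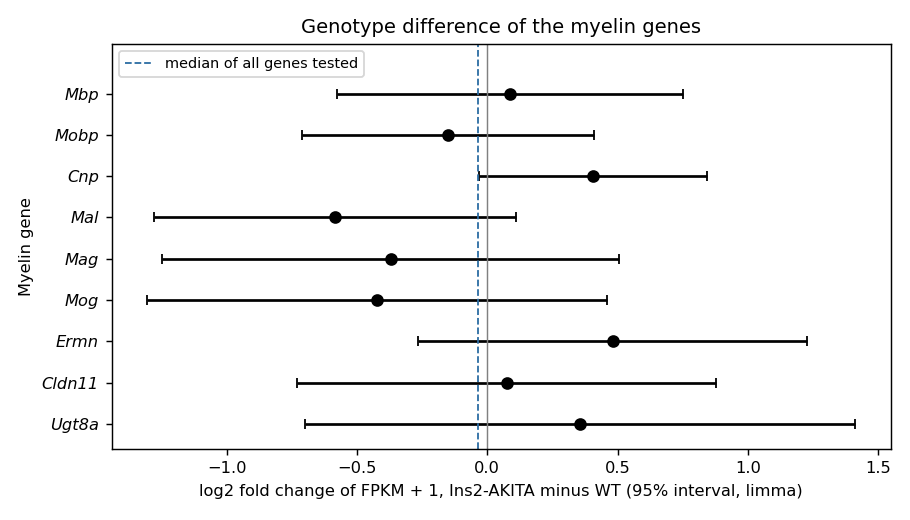
Log2 fold change of FPKM + 1 between Ins2-AKITA (n = 2) and WT mice (n = 3) for the 9 myelin genes, with 95% intervals from the limma fit across 16286 genes; the dashed line is the median of all genes tested. All 9 intervals include 0, and the points fall on both sides of it.

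The members did not move as a block between mice. Relative to its own mean over the 5 mice on the log2(FPKM + 1) scale, Mag was at -0.67 and Mog at -0.82 in Ins2-AKITA replicate 2, while Ermn was at 0.56, Cldn11 at 0.36 and Cnp at 0.35 in the same library. In WT replicate 1, Mal was at 0.74 and Ugt8a at -0.94. That library held the lowest value of 5 of the 9 genes, and Ins2-AKITA replicate 2 the lowest of 3 and the highest of 3. The mean deviation over the 9 genes stayed between -0.18 in WT replicate 1 and 0.18 in WT replicate 3, with 0.03 and -0.04 in the Ins2-AKITA mice. The difference between the genotype means of this value, -0.014, was smaller than its spread over WT mice, 0.18 (SD, n = 3).

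The ratio of Ermn to Mog, which does not depend on how a library is scaled, was 0.523, 0.484 and 0.951 in the WT group, against 0.653 and 2.28 in the Ins2-AKITA group. The ratio of Mag to Cnp was 0.316, 0.500 and 0.410 in the WT group, against 0.344 and 0.153 in the Ins2-AKITA group. Both ratios set Ins2-AKITA replicate 2 apart and leave Ins2-AKITA replicate 1 among the WT mice. This follows from the deviations of the same genes given above, so neither ratio is further evidence. The ratio of Mal to Cnp was 1.41, 0.712 and 0.748 in the WT group, against 0.517 and 0.393 in the Ins2-AKITA group, which follows from the values of both genes given above and adds no further evidence. By the root-mean-square difference of the centred log2 values over the 5 mice, the closest pairs of members were Mbp with Cldn11 (0.14), Mbp with Mobp (0.20) and Mbp with Cnp (0.20), and the farthest pair was Mal with Ugt8a (0.85).

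**Figure D3:**
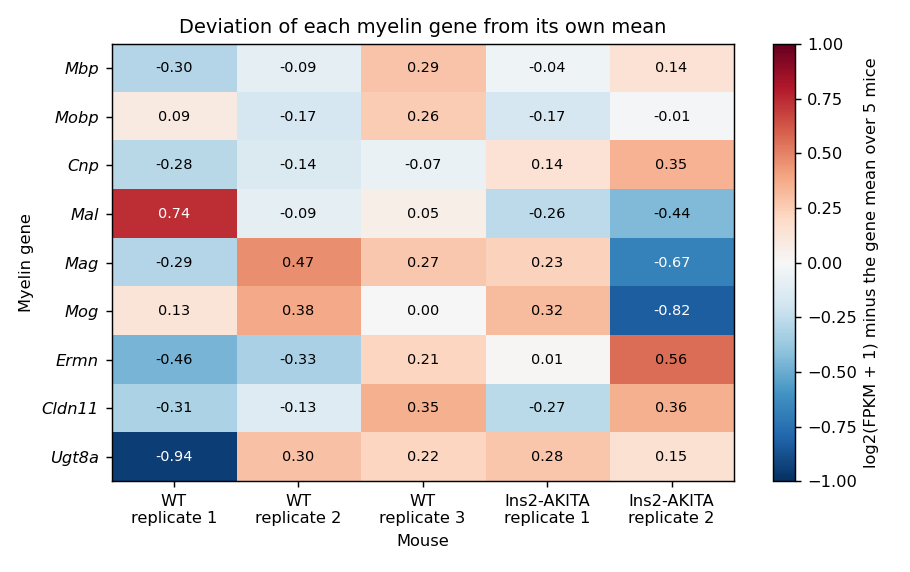
Log2(FPKM + 1) of each myelin gene minus its mean over the 5 mice (rows, genes by mean FPKM; columns, mice; red above and blue below the mean). Mag and Mog are blue in Ins2-AKITA replicate 2 where Ermn, Cldn11 and Cnp are red, and Ugt8a is at -0.94 in WT replicate 1.

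Other genes of the lineage were read from lists of 40 further myelin and mature oligodendrocyte genes, 10 oligodendrocyte transcription factors, 15 genes of precursors and newly formed oligodendrocytes and 6 genes of peripheral myelin, of which 39, 10, 15 and 5 were tested. None passed an adjusted p of 0.05 in limma in either direction, and 1 had an unadjusted p under 0.05. Of the 39 further mature genes, 22 had a log2 fold change above 0 and 17 below, with a median of 0.08, and the genotypes did not overlap for 7, which is 17.9% beside 19.5% of all genes tested. The 3 with the highest FPKM were Plekhb1, a membrane-associated protein of glia and photoreceptors, Qdpr, which regenerates tetrahydrobiopterin, and Bcas1, a protein of early myelinating oligodendrocytes. Bcas1 had 124, 171 and 256 FPKM in the WT group, against 195 and 213 in the Ins2-AKITA group, and Qdpr had 108, 178 and 312 in the WT group, against 295 and 265 in the Ins2-AKITA group. Plekhb1 had 228, 291 and 398 FPKM in the WT group, against 341 and 407 in the Ins2-AKITA group. For all 3 genes WT replicate 1 was the lowest mouse, as it was for Mbp, and their groups overlapped.

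The smallest p in that list belonged to Tppp, Cryab and Gamt. Tppp, a tubulin-binding protein of oligodendrocytes, had 47.8, 72.0 and 95.5 FPKM in the WT group, against 101 and 121 in the Ins2-AKITA group, which is 0.67 on the log2 scale with a standard error of 0.31 and an adjusted limma p of 0.90. Its Ins2-AKITA values lay above all WT values. Cryab, a small heat shock protein, had a log2 fold change of -0.56 (standard error 0.28) and Gamt, an enzyme of creatine synthesis, of -0.69 (standard error 0.40), both with an adjusted p of 0.90 in limma and with overlapping groups.

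Among the 10 transcription factors, Sox10 and Olig2 had the smallest p and pointed in opposite directions. Sox10, which drives myelin genes, had 14.1, 16.7 and 11.8 FPKM in the WT group, against 7.67 and 9.76 in the Ins2-AKITA group. The log2 difference was -0.64 with a standard error of 0.26, an unadjusted limma p of 0.045, an adjusted one of 0.90 and a two-sided exact permutation p of 0.1. Both Ins2-AKITA values lay below all WT values. Olig2, a specifier of the lineage, had 11.6, 9.93 and 12.1 FPKM in the WT group, against 17.2 and 15.1 in the Ins2-AKITA group, which is 0.50 on the log2 scale with a standard error of 0.22 and an adjusted limma p of 0.90. Its groups did not overlap either, with the Ins2-AKITA mice higher. Zfp536, a zinc finger repressor, had a log2 fold change of -0.44 (standard error 0.21), Olig1 of -0.07 (standard error 0.22) and Sox8, a relative of Sox10, of 0.13 (standard error 0.31). The genotypes did not overlap for 4 of the 10 factors, 1 higher and 3 lower, beside 19.5% of all genes tested. The fourth was Myrf, chosen after its values were seen, with a log2 fold change of -0.29 (standard error 0.25).

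For the 15 precursor and newly formed oligodendrocyte genes, the median log2 fold change was 0.06, with 8 above and 7 below 0. Among them, Cspg4 (-0.36) is also in the list of pericyte and mural markers used below. The highest FPKM belonged to Ptprz1, a receptor phosphatase that astrocytes also make, at 36.1, 50.4 and 69.1 in the WT group, against 63.4 and 76.6 in the Ins2-AKITA group. Pcdh15, a protocadherin of precursors, had 45.0, 38.2 and 24.7 FPKM in the WT group, against 22.6 and 21.6 in the Ins2-AKITA group, which is -0.64 on the log2 scale with a standard error of 0.28 and an adjusted limma p of 0.90. Lhfpl3 was at -0.49 (standard error 0.26) and Tnr, a matrix glycoprotein, at -0.03 (standard error 0.20). The peripheral myelin genes, which Schwann cells use, were low apart from Pmp22, whose mean FPKM over the 5 mice was 17.2, beside 17.8 for Mog. Pmp22 was the highest of them, at 17.9, 17.7 and 19.7 FPKM in the WT group, against 10.9 and 19.8 in the Ins2-AKITA group, followed by Egr2 and Ncmap. Ncmap was listed at 0 in 3 of the 5 mice, and Prx, a Schwann cell scaffold protein, stayed between 0.955 and 1.89 FPKM.

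**Figure D4:**
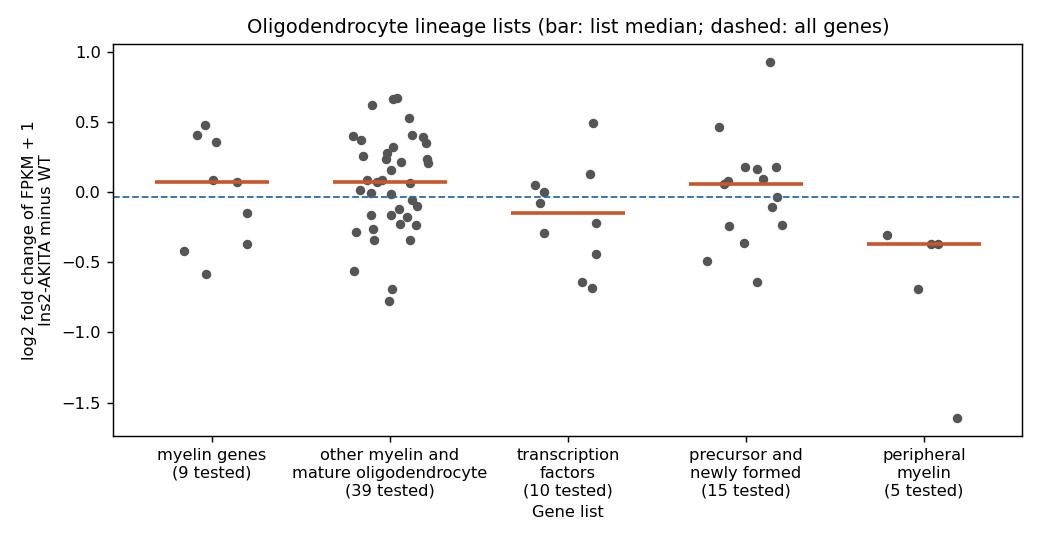
Log2 fold change of FPKM + 1 (Ins2-AKITA minus WT) of each tested gene in the 5 oligodendrocyte lineage lists, with the list median as a bar and the median of all genes tested as a dashed line. The medians are 0.07, 0.08, -0.15, 0.06 and -0.37 from left to right, and each list of central genes has points on both sides of 0.

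The levels of cell type markers, which do not separate cell numbers from RNA per cell, differed between the mice. Of all genes tested, 46.5% had a log2 fold change above 0. All 12 endothelial, 10 pericyte and mural, 10 astrocyte, 11 neuron and 8 microglia markers were above 0 in every mouse. The summed FPKM of the endothelial markers was 546 to 929 in the WT group, against 465 to 571 in the Ins2-AKITA group, and 10 of the 12 had a log2 fold change below 0. That of the astrocyte markers was 2464 to 3319 in the WT group, against 3676 to 4304 in the Ins2-AKITA group, and 9 of the 10 had a log2 fold change above 0. The neuron markers summed to 1685 to 1826 in the WT group, against 1815 to 2229 in the Ins2-AKITA group, the pericyte and mural markers to 382 to 449 and 282 to 364, and the microglia markers to 153 to 190 and 141 to 161. The 9 myelin genes summed to 1940, 1957 and 2528 FPKM in the WT group, against 2004 and 2230 in the Ins2-AKITA group. Their sum overlapped between the genotypes, as did those of the endothelial, neuron and microglia markers. The sums did not overlap for the astrocyte markers and for the pericyte and mural markers. Nor did those of 5 blood markers (35.1 to 67.7 FPKM in WT and 25.1 to 32.4 in Ins2-AKITA libraries). The same held for the 10 oligodendrocyte transcription factors (154 to 166 and 141 to 146 FPKM) and the 6 peripheral myelin genes (24.9 to 31.5 and 17.4 to 21.4 FPKM). How often sums of other genes separate was not tested.

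The mean log2(FPKM + 1) of the myelin genes minus that of the endothelial markers was -0.05, -0.41 and 0.40 in the WT group, against 0.25 and 0.47 in the Ins2-AKITA group. The difference of the genotype means was 0.38, less than the WT mice varied among themselves, 0.41 (SD, n = 3), and WT replicate 3 lay between the Ins2-AKITA mice. Relative to the astrocyte markers the same value was -1.74, -1.46 and -1.80 in the WT group, against -1.99 and -2.27 in the Ins2-AKITA group, so that both Ins2-AKITA mice were below all WT mice. Relative to the neuron markers it was -1.13, -0.75 and -0.72 in the WT group, against -0.82 and -1.11 in the Ins2-AKITA group, with full overlap. What these differences in marker levels contribute to the values of single myelin genes was not tested.

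**Figure D5:**
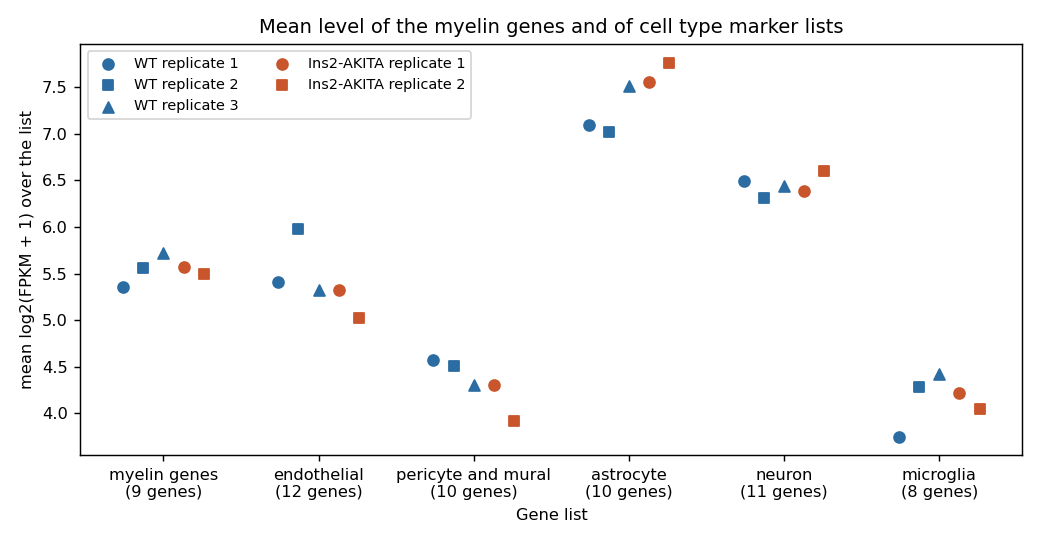
Mean log2(FPKM + 1) over the 9 myelin genes and over 5 lists of cell type markers in each mouse (blue WT, orange Ins2-AKITA, marker shape for the replicate number). The myelin points of the genotypes overlap, the orange astrocyte points lie above all blue ones, and the endothelial point of Ins2-AKITA replicate 2 is the lowest at 5.02.

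The genes most like the myelin genes were sought among the other 13922 protein-coding genes tested, by the root-mean-square difference between their centred log2(FPKM + 1) values and the mean profile of the 9 members over the 5 mice. The nearest were Cflar (0.025), an inhibitor of death receptor signaling, Tgoln1 (0.029), a protein of the trans-Golgi network, Klf3 (0.034), a transcriptional repressor, H2afz (0.037), a histone variant, and Dusp3 (0.037), a phosphatase. The median over all candidates was 0.33. The members themselves lay between 0.13 for Mbp and 0.47 for Mal from their own mean profile, and 51.0% of the candidates were nearer to it than the median member was. Cflar varied by 1.35-fold between its highest and lowest mouse.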

How the data were processed

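RNA was depleted of ribosomal RNA and made into stranded total RNA libraries. Per the labels, the authors mapped reads to NCBIM37 with TopHat2 2.0.4, filtered duplicated reads with Picard 1.92 and used Cufflinks 2.2.1. They deposited 1 FPKM value per Ensembl gene and mouse. The program behind these values, the Ensembl release and the use of strand in counting are not given in the sources used here. Duplicate removal can lower the values of highly expressed genes. Protein-coding genes made up 3.09% to 27.5% of the summed FPKM of a mouse, so the FPKM were used as deposited, without rescaling each mouse.

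Identifiers were named with GENCODE vM1 (37197 of 37982 matched) and rows with a shared symbol summed. Myrf, Ncmap and Sapcd2 were matched by Ensembl identifier through RefSeq. limma 3.58.1 in R 4.3.3 (lmFit, eBayes with a trend) was run on log2(FPKM + 1) for 16286 genes with a mean FPKM of at least 1, with genotype as the only factor, two-sided, with Benjamini-Hochberg adjustment at 0.05. The code of the fit was checked on simulated data with differences larger than those of the myelin genes. Its power for differences of their size was not tested. Single genes were also compared by an exact permutation test over the 10 splits of the 5 mice. Fold changes on this scale understate those of low genes. Fragments were estimated from FPKM steps, of which 97.4% to 97.8% per mouse fell within 0.02 of a whole number, after subtracting a mean fragment length of 224 to 228 bases from the exon length. Python 3.11.15 was used elsewhere.

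The members and lists were chosen with earlier results of these data known. Named beside the 9 members were, per lineage list, the 3 genes with the highest mean FPKM and the 3 with the smallest p, and the 5 protein-coding genes nearest to the mean profile of the members. No source used here ties equal replicate numbers to a litter or day, so they were not used as a block. Blood markers (5 genes) were listed too, at a median of -1.09 (log2), with 0 past the adjusted threshold in limma and 1 at an unadjusted p under 0.05.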

Additional observations from a re-analysis of the deposited data

How the results depend on the processing

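The fit was repeated with 0.1 added in place of 1, without the filter on low genes, with that filter raised to 5, on TPM, after median-ratio or quantile scaling, after scaling to the endothelial markers, on protein-coding genes only, with the highest row per symbol, with the replicate number as a block, with a constant prior variance, and with each mouse left out in turn. Under all of them 0 of the 9 myelin genes and 0 lineage genes passed an adjusted p of 0.05 in limma. The counts at an unadjusted p under 0.05 are given for fits with more than 1 mouse per genotype. There were 0 myelin genes as deposited and 1 each without the filter (Cnp) and with TPM (Ermn). The 69 lineage genes tested went from 1 (Sox10) to 7 with the replicate block, to 7 without WT replicate 3 and to 5 with TPM. The lineage count fell to 0 after quantile scaling and under a constant prior. Over all 16286 genes the count went from 726 to 1249 with the replicate block, 1402 without WT replicate 3 and 1913 with TPM. It was 685 after quantile scaling and 708 under a constant prior. Over all genes, 0 genes were higher in the Ins2-AKITA group as deposited, 58 on TPM and 1 with scaling to the endothelial markers or a constant prior, and 0 to 10 with a mouse left out (10 without Ins2-AKITA replicate 2). The number lower (4) became 30 with TPM, 7 with scaling to the endothelial markers, 2 without the filter, at its higher setting of 5 or under a constant prior, 1 with protein-coding genes only, and 1 to 6 with a mouse left out (1 without either Ins2-AKITA mouse).

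The median log2 fold change of the 9 myelin genes (0.07) became 1.18 with TPM and 0.44 with scaling to the endothelial markers, while the median of all genes moved to 1.07 and 0.32. Relative to that median it was 0.11 as deposited, 0.11 with TPM and 0.12 with the endothelial scaling. With the replicate block it was 0.25, the value without WT replicate 3, which has no partner under the block. The 2 numbered pairs share no stated litter or day, so the block describes numbers alone, and it changed no call on a myelin gene. With a mouse left out the median lay between -0.067 and 0.25. TPM turned Mobp to 1.57, Mog to 0.96, Mag to 1.01 and Mal to 1.00. Relative to the median of all genes, Mog, Mag and Mal were then at -0.11, -0.05 and -0.07 and Mobp at 0.50, against -0.12 for Mobp as deposited. The cause was not tested. Scaling to the endothelial markers turned Mobp to 0.25 and Mag to 0.011. With a mouse left out, the log2 fold change lay between -0.045 and 0.25 for Mbp, -0.99 and 0.15 for Mog, -0.82 and 0.081 for Mag, -0.24 and 0.39 for Cldn11, and -0.042 and 0.58 for Ugt8a, and did not change sign for Mobp, Cnp, Mal and Ermn. Without Ins2-AKITA replicate 2, Mog and Mag were at 0.15 and 0.081 and Mbp at -0.0064. A fit with 1 mouse of a genotype assumes that it varies like the others. The myelin level relative to the endothelial markers (0.38) stayed between 0.18 and 0.59 with a mouse left out. Depth, between 1131000 and 2860855 estimated fragments, limits the values of Ugt8a and Cldn11, and for Cnp and Mal only lower bounds of their fragments are known.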
